A study of Mus musculus with 32 samples.

Results

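The features described here had a higher mean in both populations of hippocampal neurons labelled CamK and Grik than in every other neuron population of the series. A feature is 1 row of the deposited table, with a GSMG identifier, a length and a count per library. CPM is a feature's count divided by the total of its library, times 1e6. A feature was taken when it reached 1 CPM in all 4 Grik and all 4 CamK hippocampus libraries, when the lower of both means was at least 2 times the mean of each of the 6 other groups, and when both means lay less than 2-fold apart. The rule found 79 of 56459 features (0.140%), and all 79 were among the 24555 features that passed the filter on low counts. These values chose the features, so their height in the hippocampal CamK and Grik libraries is given as a description, with no test.

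The series profiled ribosome-associated RNA from genetically defined neurons of wild-type mouse forebrain in 32 libraries. The groups were Grik, CamK and SST hippocampus and Scnn, CamK, VIP, PV and SST cortex, with 4 libraries each. All 32 libraries carry the same labelled genotype, WT. From knowledge of the field rather than the labels, such RNA is obtained by pulling down ribosomes that carry a tag in the cells of a Cre driver line, so a population is defined by where its driver is active. The labels give neither the tag allele, nor the Cre line, nor the age, nor whether a library pools animals. They also do not say whether replicates are separate animals, so the p-values below measure only the spread between these libraries. The titles of VIP cortex and of all hippocampal groups carry a W and those of the other cortical groups do not. Total counts ran from 100158438 to 114153919 per library, except SST hippocampus replicate 1 at 186505391.

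As background, the principal neurons of the hippocampus are glutamatergic pyramidal and granule cells. They pass signals from the dentate gyrus through area CA3 to area CA1, and they are known for strong synaptic plasticity. The CamK driver is known to be active widely in forebrain glutamatergic neurons, and the Grik driver mostly in area CA3. SST, PV and VIP mark classes of GABAergic interneurons, and Scnn marks glutamatergic neurons mostly of cortical layer 4. The files do not pair the identifiers with gene names, and none of the lines of the reference gene tables held one. Roles, sequences and cell type markers of the 79 features are therefore not given, the population labels could not be checked on markers, and only a few identifiers are printed for each comparison. RNA of other cells in the pulled-down material could not be measured. In such bulk samples fewer cells of a type and less RNA per cell cannot be told apart.

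The 79 features spanned a wide range of levels. Their mean over the 8 Grik and CamK hippocampus libraries ran from 1.62 to 2615 CPM with a median of 26.4 CPM, close to the median of 24.04 CPM of the 12436 tested features that reached 1 CPM in all 8 libraries. Of the 79, 18 stood at 100 CPM or more and 27 under 10 CPM. The 5 most abundant held 56.7% of their summed CPM. The deposited length had a median of 1891 bases (503 to 9637), against 1433 bases for those 12436 features. Per kilobase of that length the median level was 14.3 CPM, against 17.0 CPM for the 12436.

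GSMG0028387 was the most abundant, both in CPM and per kilobase (5198 CPM per kilobase). It was listed at 2765, 2936, 3277 and 2911 CPM in the 4 Grik hippocampus libraries and at 2005, 1880.3, 2668 and 2476 CPM in the 4 CamK hippocampus libraries. Every one of these 8 libraries stood far above the cortical ones, where Scnn reached 765 ± 56.7 CPM and CamK 649 ± 80.2 CPM (SD, n = 4 each). The GABAergic groups held still less of it, from 138 ± 12.8 CPM in SST cortex to 268 ± 38.7 CPM in VIP cortex.

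GSMG0012560 came next in CPM, at 1776 ± 46.9 CPM in Grik hippocampus and 1375 ± 77.3 CPM in CamK hippocampus. Its cortical glutamatergic levels were close to each other, 632 ± 75.4 CPM in Scnn and 626 ± 28.0 CPM in CamK cortex. GSMG0028363 came next per kilobase, at 2455 CPM per kilobase. It had 1518 ± 98.1 CPM in Grik hippocampus and 1463 ± 16.8 CPM in CamK hippocampus, and it remained abundant everywhere else, from 402 ± 23.3 CPM in VIP cortex to 671 ± 69.6 CPM in SST hippocampus. It was thus raised above a level that was already high in every population.

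**Figure D1:**
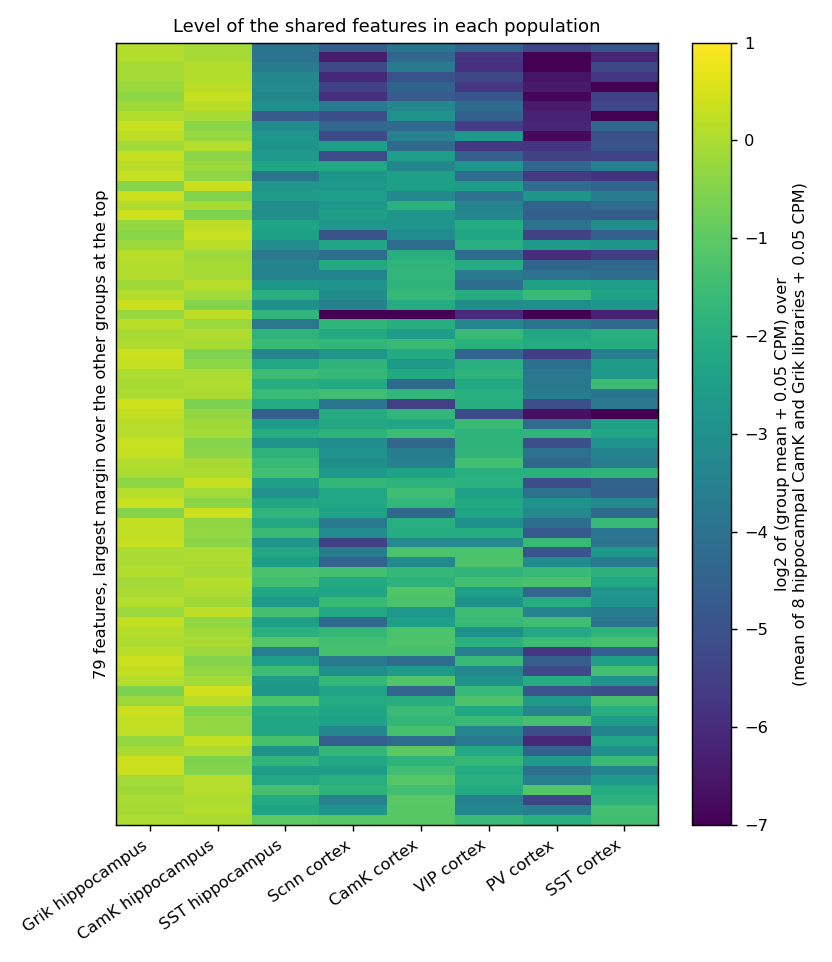
Heat map of the 79 features (rows) in the 8 populations (columns); colour is the log2 ratio of the group mean to the mean of the 8 hippocampal Grik and CamK libraries, with 0.05 CPM added to both. The Grik and CamK hippocampus columns are near 0 by the rule, and the other columns differ from feature to feature, with PV cortex the darkest for 44 of 79.

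How far the hippocampal glutamatergic level stood above the next population varied. The ratio of the lower of both means to the highest other mean had a median of 2.66. It was under 2.5 for 32 features, at least 3 for 27, at least 5 for 11 and at least 10 for 4. In 15 features the mean was under 1 CPM in all 6 other groups, whereas 38 stayed at 1 CPM or more in all 6.

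GSMG0030116 had the largest ratio, 15.9, with values of 5.80, 5.10, 5.62 and 6.96 CPM in Grik hippocampus and at 4.94, 4.72, 4.87 and 6.33 CPM in CamK hippocampus. The highest other mean was 0.328 ± 0.0294 CPM in CamK cortex. GSMG0034404 followed with a ratio of 15.6. It had 25.6, 26.2, 30.7 and 29.1 CPM in Grik hippocampus and 22.8, 21.0, 27.8 and 28.2 CPM in CamK hippocampus. SST hippocampus was the next highest for it, at 1.599 ± 0.379 CPM, and CamK cortex stood at 1.2505 ± 0.293 CPM. In both features the 8 hippocampal glutamatergic libraries lay well apart from all 24 others.

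At the other end, the ratio of 2 set by the rule cut through a continuous range. GSMG0014180 was just inside at 2.001, with 248 ± 24.3 CPM in Grik hippocampus and 243 ± 20.6 CPM in CamK hippocampus, and with 121 ± 30.1 CPM in SST hippocampus. GSMG0013776 was also just inside, at 6.16 ± 1.11 CPM in Grik hippocampus and 6.82 ± 0.665 CPM in CamK hippocampus, and at 3.07 ± 0.583 CPM in CamK cortex. Just outside were GSMG0020779, at 624 and 584 CPM in Grik and CamK hippocampus and 293 CPM in CamK cortex, and GSMG0017306, at 81.0 and 76.1 CPM in Grik and CamK hippocampus and 38.4 CPM in VIP cortex. There were 19 of the 79 at a ratio under 2.2, and another 26 features met every other criterion at a ratio of 1.8 to 2.

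The libraries of the groups hardly overlapped. In 78 of 79 features the lowest of the 8 hippocampal glutamatergic libraries exceeded the highest of the 24 other libraries, which was so for 2.01% of all features tested. The rule all but fixes this count. The exception was GSMG0035411, whose lowest Grik library (1.41 CPM) was under its highest VIP cortex library (1.55 CPM). Its means were 2.197 ± 0.588 CPM in Grik hippocampus and 2.91 ± 0.290 CPM in CamK hippocampus and 1.05 ± 0.341 CPM in VIP cortex. It is named here after its values were seen.

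The rule was then applied again without each library in turn, which leaves that library as a measurement the choice did not use. Leaving out 1 of the 8 hippocampal glutamatergic libraries gave 71 to 85 features. In the left-out library, between 75.3% and 94.7% of them were again at least 2 times every other group mean. The features chosen without CamK hippocampus replicate 4 gave the lowest of these shares, with 64 of 85 at 2-fold, although 84 of the 85 were above every other mean. Without CamK hippocampus replicate 2 it was 67 of 71, with all 71 above every library of the other groups. Nothing is read from these shares, since the rule keeps the other groups low and no share over all features was computed.

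**Figure D2:**
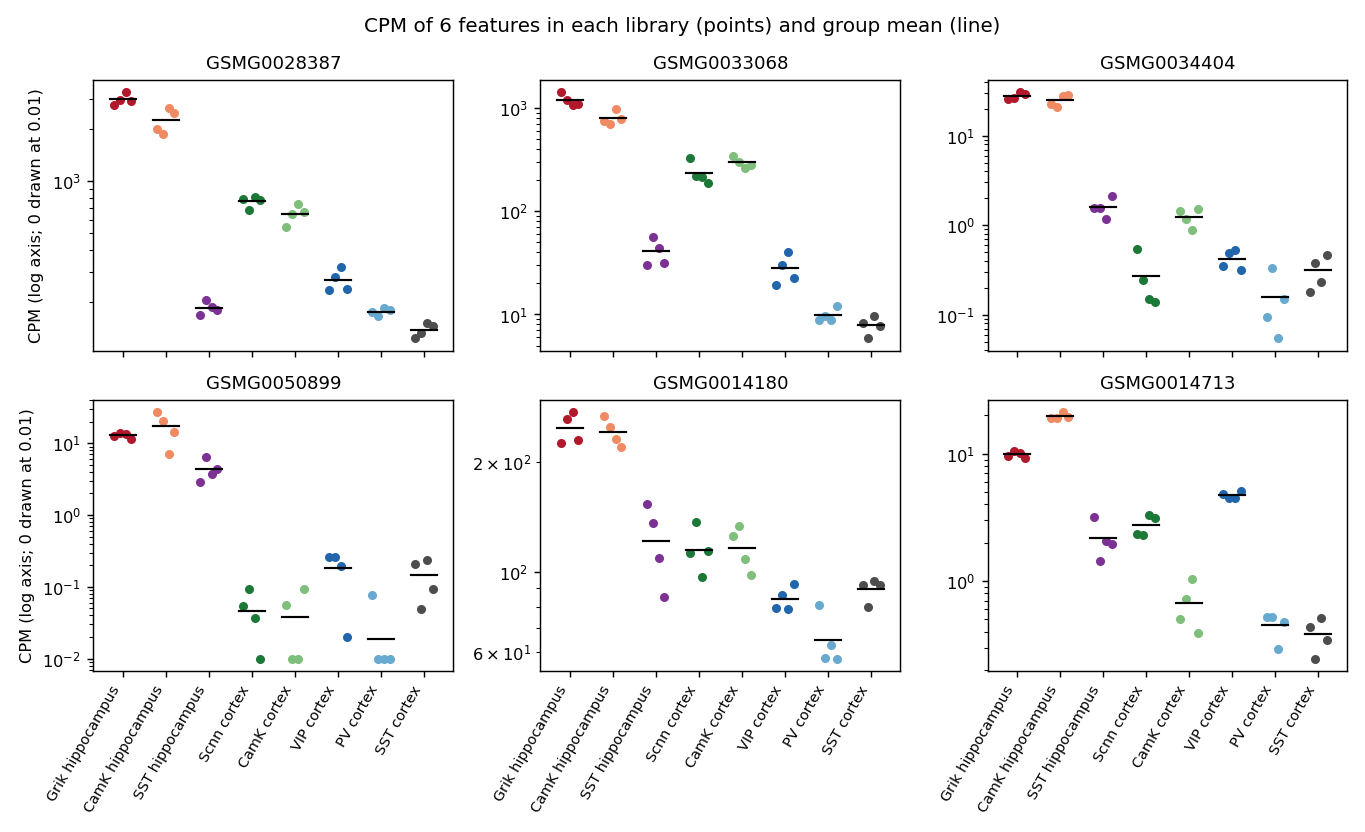
CPM on a log axis for 6 features in each of the 32 libraries (points) with the group mean (line), by population. GSMG0028387 and GSMG0033068 keep intermediate levels in Scnn and CamK cortex, GSMG0034404 and GSMG0050899 are low in the whole cortex, GSMG0014180 sits at the limit of the rule, and GSMG0014713 is higher in CamK than in Grik hippocampus.

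Grik and CamK hippocampus lay less than 2-fold apart by the rule, and within that bound their difference varied from feature to feature. The log2 ratio of Grik to CamK had a median of 0.17, against -0.07 over the 12436 tested features at 1 CPM in all 8 libraries. It was above 0 for 49 features and below 0 for 30, and 37 of 79 lay within 1.25-fold. Beyond 1.5-fold, 18 were higher and 6 lower in Grik. All 4 Grik libraries were above all 4 CamK libraries in 28 features, where 13% of all features tested showed this, and below them in 5, where 18.9% did. Nothing is read from these counts, since the rule limits this difference.

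GSMG0015045 leaned most towards Grik, by 0.98 on the log2 scale, with 44.7, 47.1, 42.1 and 28.7 CPM in Grik hippocampus and 27.8, 24.8, 17.8 and 12.3 CPM in CamK hippocampus. The libraries of both groups varied widely but did not overlap. GSMG0020386 followed with 0.94, with means of 83.7 ± 10.3 CPM in Grik and of 43.5 ± 8.64 CPM in CamK hippocampus.

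GSMG0014713 leaned most towards CamK, with a log2 ratio of -0.995. It was listed at 9.64, 10.6, 10.2 and 9.22 CPM in Grik hippocampus and at 19.1, 19.2, 21.2 and 19.6 CPM in CamK hippocampus. Both groups were tight and well separated. GSMG0051083 came next at -0.85, with 1.97 ± 0.329 CPM in Grik and 3.56 ± 1.55 CPM in CamK hippocampus. Its CamK libraries ran from 1.48 to 4.97 CPM and overlapped those of Grik. A further 30 features met the rule but for its limit between both groups, 24 of them higher in Grik and 6 higher in CamK hippocampus.

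**Figure D3:**
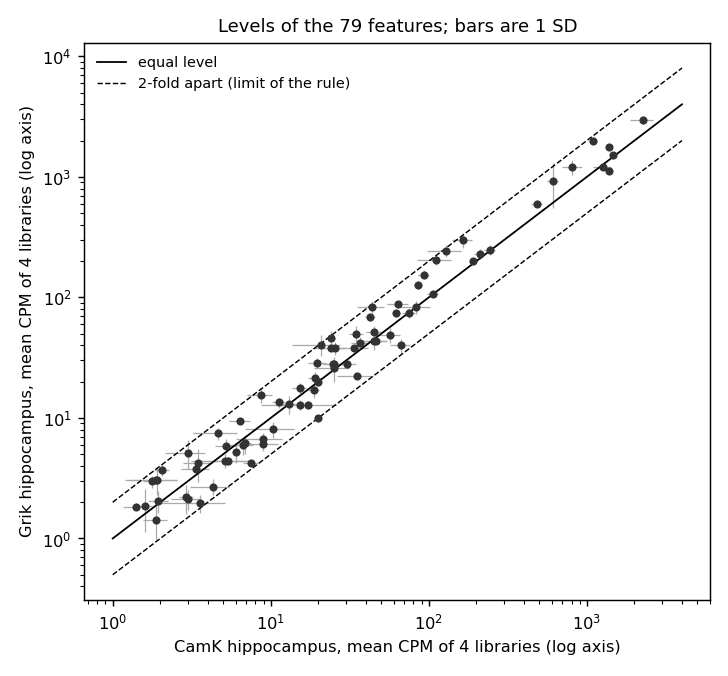
Mean CPM in Grik hippocampus (vertical, log axis) against CamK hippocampus (horizontal, log axis) for the 79 features, with 1 SD over 4 libraries as bars; dashed lines mark the 2-fold limit of the rule. Features lie on both sides of the line of equal level, 49 above it and 30 below.

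In Grik and CamK hippocampus the spread among replicates was small for most features. The median coefficient of variation over the 79 was 10.9% in Grik hippocampus and 14.7% in CamK hippocampus. Over all features tested it was 17.9% and 20.2%. The rule favours a small spread here, since it asks for 1 CPM in each of these libraries, so nothing is read from this. GSMG0050899 varied most, at 12.5, 13.9, 13.6 and 11.6 CPM in Grik hippocampus and at 27.2, 20.2, 7.04 and 14.5 CPM in CamK hippocampus. The spread lay in the CamK libraries, where the coefficient of variation was 49.7%. GSMG0051083, named above, followed at 43.5%, again in CamK hippocampus and again with replicate 4 the lowest. Against the mean of the other 3 libraries of its group, CamK hippocampus replicate 4 was over 1.5-fold lower in 12 of the 79 features and over 1.5-fold higher in 0. Grik hippocampus replicate 6 was over 1.5-fold lower in 5 and higher in 1.

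Across the 6 other populations the features kept different shares of their hippocampal glutamatergic level. The median share was 17.7% in SST hippocampus. In the cortex it was 15.1% in Scnn and 22.4% in CamK, and 19.5% in VIP, 4.50% in PV and 8.30% in SST. The highest other mean was in CamK cortex for 28 features, SST hippocampus for 18, VIP cortex for 14, Scnn cortex for 9, PV cortex for 6 and SST cortex for 4. The lowest was in PV cortex for 44 and in SST cortex for 19, and never in SST hippocampus. Under 5% of the hippocampal glutamatergic level was left for 42 features in PV cortex and for 2 in SST hippocampus.

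Summed over the 79 features, Grik hippocampus libraries held 16561 ± 349 CPM and CamK hippocampus libraries 13328 ± 769 CPM. The other sums were 4609 ± 146 CPM in CamK cortex, 3263 ± 51.7 CPM in Scnn cortex, 2578 ± 52.2 CPM in SST hippocampus, 2288 ± 71.7 CPM in SST cortex, 1916 ± 201 CPM in VIP cortex and 1642 ± 62.5 CPM in PV cortex (SD, n = 4 each). VIP cortex libraries ran from 1749 to 2181.8 CPM. They overlapped neither those of SST cortex (2218 to 2358 CPM) nor those of PV cortex (1555 to 1695 CPM), though the gaps on both sides were narrow.

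**Figure D4:**
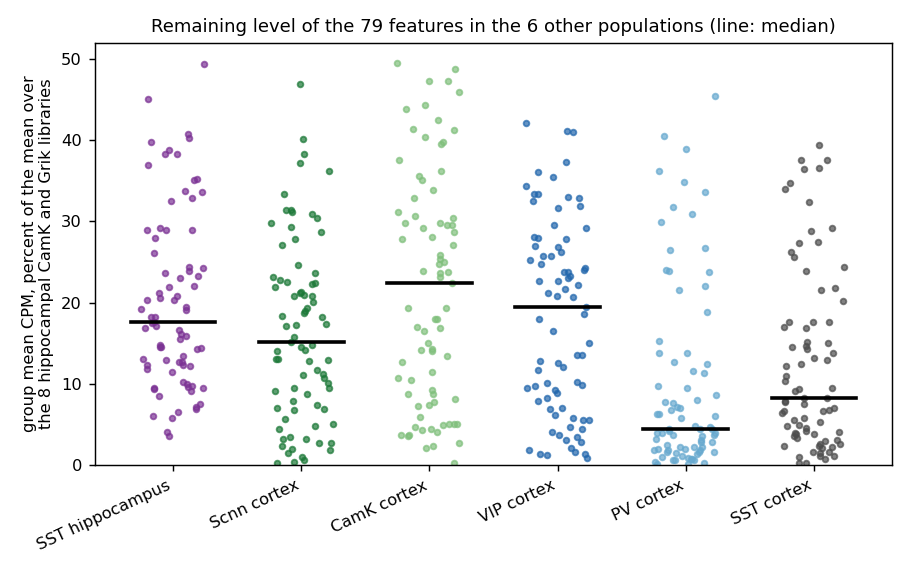
Mean CPM of each of the 79 features (points) in the 6 other populations, as a percent of its mean over the 8 hippocampal Grik and CamK libraries; the line is the median. No point passes 50% because of the rule, and the medians are lowest in PV cortex (4.50%) and SST cortex (8.30%).

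The 6 other groups entered the rule only as upper limits on the same side, and differences among them were tested. The tests used the same libraries as the rule, so they are not independent of the choice of features. The features tested as a whole were held neither to these limits nor to 1 CPM in the Grik and CamK hippocampus libraries. Shares and medians over all features are therefore given below as a description, and no excess over them is read. The test was edgeR's quasi-likelihood F test over all 24555 features, and p-values were adjusted by the Benjamini-Hochberg method. Calls needed an adjusted p under 0.05 together with a difference of 2-fold or more. Beyond the filter on low counts no minimum CPM was set, so some calls rest on means under 1 CPM on both sides. Log2 fold changes from it are TMM-scaled, whereas CPM values are not. Where a side holds several groups, the test averages their log2 levels, which can differ from the average CPM. Between glutamatergic and GABAergic cortex, GSMG0028321 was called higher (log2 fold change 1.02) at 6.88 against 4.29 CPM, under 2-fold. GSMG0014713 had a log2 fold change of 0.67 there, although its mean CPM was lower in the glutamatergic libraries (1.72 against 1.86 CPM).

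Between SST interneurons of the hippocampus and of the cortex, every feature called was higher in the hippocampus. Of the 79, 37 were called higher in SST hippocampus (46.8%), where 3.92% of all features tested were. None was called lower, where 3.54% of all features were. With a lower estimate, edgeR's unadjusted p was under 0.05 for 5 of the 79, and DESeq2 called 40 higher and 0 lower. For the unadjusted and DESeq2 counts no share over all features was computed, so the shares above do not apply to them. The median log2 fold change was 1.02, against 0.02 over all features tested. The other 42 were not called. Some of the 37 averaged under 1 CPM in both SST groups, such as GSMG0025555 at 0.942 CPM in SST hippocampus and 0.0197 CPM in SST cortex. Others were lower still in SST hippocampus, such as GSMG0020566 at 0.200 CPM there and 0.0612 CPM in SST cortex. Of all 79, 21 averaged under 1 CPM in SST hippocampus and 32 in SST cortex.

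GSMG0050899 showed the largest such difference among features of at least 1 CPM. It was listed at 2.90, 6.44, 3.77 and 4.34 CPM in SST hippocampus and at 0.208, 0.0497, 0.234 and 0.0931 CPM in SST cortex (log2 fold change 4.88, SE 0.60, edgeR adjusted p = 7.18e-07). The groups lay far apart, and every SST hippocampus library was also far above every library of the other cortical groups. GSMG0014713 rose as well, at 3.19, 1.42, 2.06 and 1.97 CPM in SST hippocampus and 0.436, 0.246, 0.511 and 0.345 CPM in SST cortex (2.496, SE 0.25, edgeR adjusted p = 3.74e-09). Neither group overlapped the other, which the rule for naming features in a test requires. The abundant GSMG0028387 had 186 ± 14.6 CPM in SST hippocampus and 138 ± 12.8 CPM in SST cortex, which differed by 0.43 on the log2 scale (SE 0.10, edgeR adjusted p = 0.00193) and is under the 2-fold limit.

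Region and the W of the titles cannot be told apart in this comparison, since all SST hippocampus libraries carry the W and no SST cortex library does. SST hippocampus also comes from the same tissue as the Grik and CamK hippocampus libraries. The shares of the hippocampal glutamatergic level seen in SST hippocampus ran from 3.64% to 49.4% over the 79 features.

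In the cortex, more of the features were called higher than lower in the glutamatergic populations, although VIP alone kept a higher median share than Scnn, as given above. The average log2 level of Scnn and CamK was called higher than that of VIP, PV and SST for 35 of 79 (44.3%), where 11.3% of all features tested were. It was called lower for 2, where 13% of all features were. The median log2 fold change was 0.74, against -0.07 over all features tested. Of these groups only VIP carries the W, so class and title series are partly mixed in this comparison.

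GSMG0033068 differed most, with 327, 222, 215 and 189 CPM in Scnn cortex and 348, 302, 266 and 281 CPM in CamK cortex. Among GABAergic groups it averaged 28.1 ± 9.46 CPM in VIP, 9.86 ± 1.56 CPM in PV and 7.89 ± 1.58 CPM in SST cortex. The log2 fold change was 4.51 (SE 0.14, edgeR adjusted p = 5.78e-21), and it was the strongest contrast between both classes in the set. In the hippocampus it stood at 1198 ± 169 CPM in Grik, 811 ± 119 CPM in CamK and 40.8 ± 12.4 CPM in SST libraries.

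GSMG0012560 followed, with 629 ± 52.7 CPM over the 8 cortical glutamatergic libraries and 74.9 ± 47.9 CPM over the 12 cortical GABAergic ones (log2 fold change 3.46, SE 0.09, edgeR adjusted p = 8.85e-25). The most abundant feature, GSMG0028387, was higher by 2.05 (SE 0.06, adjusted p = 2.34e-23). The features called lower, given here although the rule for naming leaves them out, were GSMG0018643 and GSMG0037470. GSMG0037470 had 3.71 ± 0.714 CPM in Scnn and 8.96 ± 0.464 CPM in CamK cortex, against 35.1 ± 3.98 CPM in VIP, 9.41 ± 0.524 CPM in PV and 6.47 ± 0.754 CPM in SST cortex, so VIP was the one GABAergic group far above both glutamatergic groups. GSMG0018643 stood at 0.113 ± 0.167 CPM over the glutamatergic and 0.375 ± 0.337 CPM over the GABAergic libraries, with the highest mean, 0.785 ± 0.246 CPM, in PV cortex.

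Between the cortical glutamatergic populations, more of the features were lower than higher in Scnn. Scnn was called lower than CamK for 24 of 79 (30.4%), where 5.94% of all features tested were, and higher for 8 (10.1%), where 13.7% were. The median log2 fold change was -0.46, against -0.01 over all features tested. Neither group carries the W.

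GSMG0018738 fell most in Scnn among features of at least 1 CPM. It was listed at 0, 0.133, 0.133 and 0.211 CPM in Scnn cortex and at 0.879, 0.925, 0.917 and 1.37 CPM in CamK cortex (log2 fold change -3.16, SE 0.70, edgeR adjusted p = 0.000632). GSMG0033932, an abundant feature of the hippocampal glutamatergic libraries, had 114, 134, 98.2 and 105 CPM in Scnn cortex and 606, 616, 590.2 and 592 CPM in CamK cortex (-2.505, SE 0.12, edgeR adjusted p = 7.63e-17). Its CamK cortex level was within a narrow margin of the limit of the rule, since Grik hippocampus held 1206 ± 41.1 CPM and CamK hippocampus 1258 ± 171 CPM. GSMG0040475 rose in Scnn, at 6.07, 7.84, 5.36 and 7.09 CPM in Scnn cortex and 1.30, 1.11, 2.09 and 1.37 CPM in CamK cortex (2.08, SE 0.19, edgeR adjusted p = 1.15e-10). GSMG0014713 rose too, averaging 2.77 ± 0.522 CPM in Scnn against 0.666 ± 0.287 CPM in CamK cortex (1.96, SE 0.24, adjusted p = 4.72e-08). In none of these 4 features did the Scnn and CamK cortex libraries overlap, which the rule for naming requires.

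Between the cortical interneurons without the W, more of the features were called lower than higher in PV. PV was called lower for 29 of 79 (36.7%), where 9.08% of all features tested were, and higher for 4 (5.06%), where 6.08% were. The median log2 fold change was -0.54, against 0.04 over all features tested.

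GSMG0030117 was nearly lacking in PV cortex, at 0.104, 0.0694, 0.0725 and 0 CPM in PV and 1.8006, 1.18, 1.53 and 1.52 CPM in SST cortex (log2 fold change -4.51, SE 0.45, edgeR adjusted p = 7.64e-10). GSMG0026058 had 0.163 ± 0.0449 CPM in PV and 2.99 ± 0.602 CPM in SST cortex (-4.13, SE 0.22, edgeR adjusted p = 1.41e-16), and SST hippocampus held 2.80 ± 0.371 CPM of it. Both features had means over 1 CPM in the SST libraries of cortex and hippocampus alike. In the opposite direction, GSMG0051600 had 12.1, 10.3, 11.1 and 12.4 CPM in PV and 1.72, 1.81, 1.58 and 2.96 CPM in SST cortex (2.55, SE 0.18, edgeR adjusted p = 2.55e-13). GSMG0031132 had 41.2 ± 3.38 CPM in PV and 17.9 ± 2.83 CPM in SST cortex (1.243, SE 0.10, adjusted p = 6.30e-12). The remaining features called higher in PV, GSMG0018643 and GSMG0005599, were under 1 CPM in both groups.

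Against PV and SST interneurons of the cortex, more of the features were called higher than lower in VIP. VIP was called higher than the average log2 level of PV and SST for 35 of 79 (44.3%), where 22.6% of all features tested were. It was called lower for 4 (5.06%), where 6.14% were. The median log2 fold change was 0.91, against 0.15 over all features tested. Only VIP of these groups carries the W, and class and title series cannot be told apart here.

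GSMG0014713 and GSMG0014714, whose identifiers are consecutive, rose most among features of at least 1 CPM in VIP without overlap between libraries. GSMG0014713 was listed at 4.85, 4.49, 4.52 and 5.07 CPM in VIP cortex and averaged 0.454 ± 0.112 CPM in PV and 0.384 ± 0.115 CPM in SST cortex (log2 fold change 3.26, SE 0.19, edgeR adjusted p = 1.55e-15). GSMG0014714 was listed at 10.49, 12.8, 11.3 and 11.1 CPM in VIP cortex and averaged 0.618 ± 0.167 CPM in PV and 2.29 ± 0.625 CPM in SST cortex (3.02, SE 0.17, adjusted p = 3.55e-15). For both, VIP cortex had the highest mean after Grik and CamK hippocampus, although for GSMG0014714 it differed by less than the spread from SST hippocampus at 10.99 ± 2.08 CPM.

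GSMG0031914 had 52.4, 74.5, 99.8 and 62.4 CPM in VIP cortex, against 236 ± 16.03 CPM in PV and 212 ± 24.2 CPM in SST cortex (log2 fold change -1.88, SE 0.11, edgeR adjusted p = 2.68e-15). In the hippocampus it averaged 1129 ± 49.0 CPM in Grik and 1371 ± 57.8 CPM in CamK libraries. GSMG0018761 had 9.20 ± 1.14 CPM in VIP cortex, 15.0 ± 2.09 CPM in PV and 19.6 ± 2.77 CPM in SST cortex (-1.15, SE 0.11, edgeR adjusted p = 1.52e-10). Without VIP cortex replicate 1 its log2 fold change was -0.99 and it missed the 2-fold limit. The remaining features called lower, GSMG0013776 and GSMG0050985, overlapped between VIP and the other interneuron libraries.

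**Figure D5:**
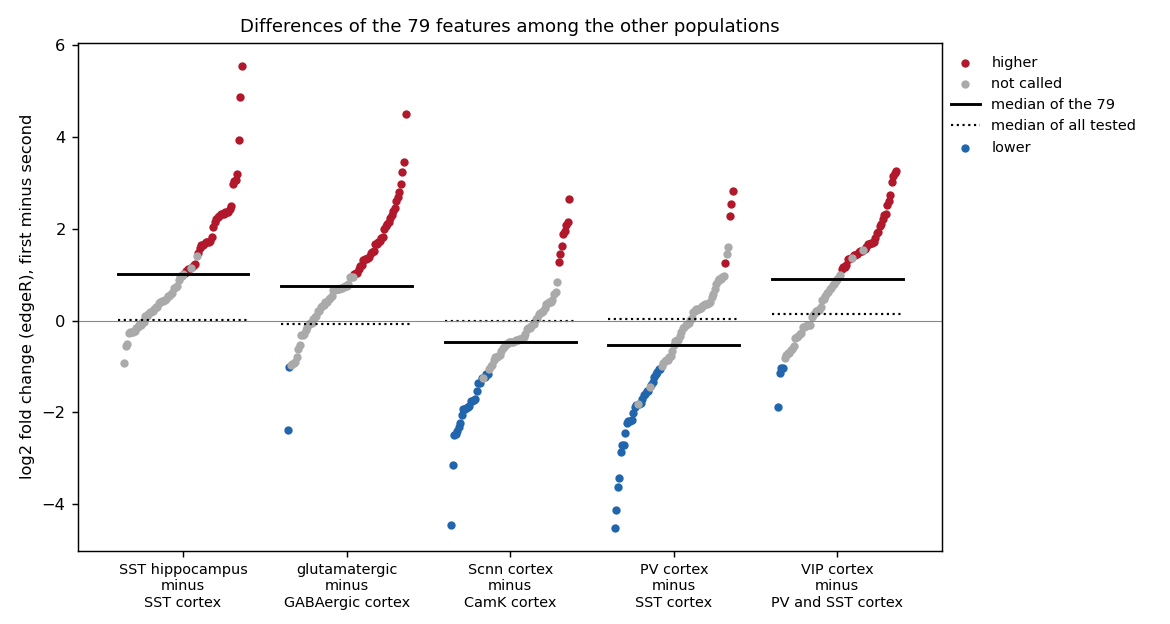
Log2 fold change (edgeR) of each of the 79 features in 5 comparisons among the populations other than Grik and CamK hippocampus, sorted within each; red and blue points were called higher and lower in the first named group. Solid lines are the median of the 79 (1.02, 0.74, -0.46, -0.54 and 0.91 from left to right) and dotted lines that of all features tested.

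Some features carried neighbouring identifiers. There were 6 pairs of consecutive identifiers among the 79, holding 12 features. The sources used here do not say what the order of identifiers means, whether such rows overlap, or whether counting used strand, so the members of a pair may share reads. GSMG0020386 and GSMG0020387 moved alike, with log2 ratios of Grik to CamK hippocampus of 0.94 and 0.88. GSMG0014713 and GSMG0014714 differed in this ratio, at -0.995 and 0.46. GSMG0030116 and GSMG0030117 also differed. GSMG0030116 reached at most 0.328 CPM as a mean of the 6 other groups, and GSMG0030117 stood at 2.97 ± 1.48 CPM in SST hippocampus and 1.51 ± 0.253 CPM in SST cortex. The pairs named here were picked out after their values were seen. Over all 32 libraries the Pearson correlation of log2 levels within the 6 pairs ran from 0.835 to 0.986. The rule raises such correlations, since it sets the same groups high in every feature.

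The same rule applied to the other pairs of populations found 88 features for Scnn and CamK cortex and 75 for SST hippocampus and SST cortex. The Grik and CamK hippocampus features were thus of similar number to those shared by these pairs. Scnn and VIP cortex shared the most of the 28 pairs, 137. Apart from the pairs named so far, Grik hippocampus and VIP cortex shared the most, 27, and CamK hippocampus and CamK cortex shared 17.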

How the data were processed

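Ribosome-associated RNA, prepared as stranded polyadenylated libraries per the labels, was sequenced in 32 libraries, grouped by title and tissue label into 8 groups of 4. The deposited values are expected counts, which are not all whole, with a length for each feature, per the file headers and the values. FastQC, featureCounts, Picard, SAMtools and GRCm38 appear, with no role or version, per the submitters' processing notes. For the aligner, the annotation and the counting mode, nothing is given in the sources used here. The table's 12 other per-sample columns match no sample and were not used, nor was a column of codes.

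The rule used CPM on column totals. For tests, counts were rounded and entered into edgeR 4.0.16, run under R 4.3.3 (filterByExpr, TMM, robust quasi-likelihood fit of 8 groups, 24 residual degrees of freedom). An SE is the size of the log2 fold change over the square root of F. DESeq2 1.42.0, other filters, scalings and left-out libraries were alternatives, and the fit was tested on simulated data. Features named in tests were the 2 called each way with the largest change, a mean of at least 1 CPM on the higher side and no overlap; in descriptions, the 2 most extreme. The features and comparisons were chosen with earlier results of these data known.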

Additional observations from a re-analysis of the deposited data

Results flagged for a closer look

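Among 25 named features, 200 groups of 4 libraries were searched for 1 library far from the other 3, and 13 were found; chance alone finds about 1 in 20. In CamK hippocampus, GSMG0030116 was high in replicate 5 (6.33 CPM) and GSMG0030117 in replicate 2 (12.2 CPM), and GSMG0031132 (78.9 CPM) and GSMG0031914 (1286 CPM) were low in replicate 3. In CamK cortex, GSMG0013776 was high in replicate 1 (3.94 CPM) and GSMG0018738 in replicate 4 (1.37 CPM), and GSMG0031914 was low in replicate 4 (301 CPM). In SST cortex, GSMG0018738 (0.305 CPM) and GSMG0051600 (2.96 CPM) were high in replicate 4. In VIP cortex, GSMG0020386 was low in replicate 2 (18.0 CPM) and GSMG0051600 high in replicate 4 (13.2 CPM). GSMG0030117 was high in Scnn cortex replicate 2 (0.490 CPM), and GSMG0050899 was seen in PV cortex replicate 1 only (0.0761 CPM).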

How the results depend on the processing

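The number of features that meet the rule was 79; it was 27 with 3-fold and 177 with 1.5-fold in place of 2-fold over each other group, and 71 to 85 without any 1 library. It was 85 with TMM-scaled CPM, of which 72 were among the 79. Without the fold threshold, glutamatergic against GABAergic cortex gave 55 higher and 9 lower, and Scnn against CamK cortex 40 lower. PV against SST cortex then gave 14 higher, VIP against PV and SST cortex 12 lower, and SST hippocampus against SST cortex 3 lower. No share over all features was computed for calls under any alternative, so these counts show only how far each one moved. Features lower in VIP numbered 2 with DESeq2, with its size factors in edgeR, with only the groups compared, and with 1 CPM in at least 4 libraries. Without 1 library at a time they numbered 1 to 4. The features lower in glutamatergic cortex then numbered 1 to 4: 4 without Scnn replicate 2, and 1 without VIP replicate 2 or replicate 4. The features lower in SST hippocampus numbered 0 to 1. The 37 features higher in SST hippocampus became 32 to 40, and every larger count stayed within 1.5 times under the alternatives other than the fold threshold.

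Same-numbered libraries of the groups compared shared only a number, with correlations of their deviations from -0.0686 to 0.123. With the replicate number as a block, SST hippocampus against SST cortex gave 37 higher and 1 lower, and no other count moved by more than 1.5 times. Counting 1 feature per pair of consecutive identifiers, an alternative chosen after seeing the data, left 36 higher in SST hippocampus. Values under about 0.1 CPM rest on few reads at these depths.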
